A study of Mus musculus with 10 samples.

Results

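The regions described here are the V segments of the antigen receptor loci, the gene pieces from which B cells and T cells assemble the variable part of immunoglobulins and T cell receptors. The members are all genes of biotype V_segment in the RefSeq gene table of GRCm38.p6, whose coordinates are those of mm10, each taken as the gene span with 1 kb on either side and grouped by symbol prefix. The table held 394 such genes among 49997 genes in all. Of these, 374 lay on the chromosomes of the island lists, among 49595 genes placed there, and the other 20 lay on separate scaffolds and were not analysed here. The prefixes put 120 in Igh (the heavy chain locus), 102 in Igk (the kappa light chain), 3 in Igl (the lambda light chain), 119 in Tcra/Tcrd (the interleaved alpha and delta chains, with 114 Trav and 5 Trdv symbols), 22 in Tcrb (the beta chain) and 7 in Tcrg (the gamma chain). Gm7003, which carries no such prefix, lies between Igh V segments and brings the total to 374.

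The groups were ChIP-seq libraries of 4 histone marks, H3K27me3, H3K9me3, H3K4me1 and H3K4me3, with 2 experiments per mark, named Exp1 and Exp2. All came from the Glast+ fraction of retinas of C57BL/6 mice at day 28 after birth, with no treatment or genotype named in the labels. Glast (Slc1a3) is a glutamate transporter that marks Müller glia, the main support cells of the retina, so the cells are a fraction enriched by 1 surface marker. Nothing in the labels says whether the experiments used separate animals, so the spread between them may be technical.

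In developing lymphocytes the RAG recombinase cuts next to a V segment, in some loci a D segment, and a J segment, and the joined ends form the exon for the variable domain. Outside those cells the segments stay in germline order, as many short genes spread over long stretches, which in some loci hold other genes too. H3K27me3 is set by Polycomb complexes and H3K9me3 by SUV39 and SETDB enzymes, and both are known from silent chromatin. H3K4me3 marks active or poised promoters, and H3K4me1 marks enhancers and promoter flanks.

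The edges of the V arrays show the contrast on which the results turn, so the promoter sequences of 4 protein-coding genes beside or within the arrays are given first. Each runs from 250 bases before to 50 bases after the transcript start, 5′ to 3′ on its own strand, from RefSeq on GRCm38.p6, with every CG in capitals. Of the V segments, 0 of 394 matched an entry of the promoter table. Zfp386 (chr12:116047474-116047773, plus strand), a zinc finger gene past the distal end of the Igh V segments, holds 17 CG and had both H3K4me3 and H3K9me3 over the whole stretch in both experiments.
Zfp386: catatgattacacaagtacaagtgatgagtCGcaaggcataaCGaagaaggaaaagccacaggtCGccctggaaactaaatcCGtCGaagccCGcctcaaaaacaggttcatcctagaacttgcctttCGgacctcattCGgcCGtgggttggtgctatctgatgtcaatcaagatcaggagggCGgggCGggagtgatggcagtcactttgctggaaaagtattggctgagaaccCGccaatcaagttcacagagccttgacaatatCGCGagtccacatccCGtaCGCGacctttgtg
Adam6a (chr12:113543658-113543957, plus strand), a fertility gene of the ADAM family at the other end of the Igh V segments, holds 1 CG and had both repressive marks over the whole stretch in all 4 libraries.
Adam6a: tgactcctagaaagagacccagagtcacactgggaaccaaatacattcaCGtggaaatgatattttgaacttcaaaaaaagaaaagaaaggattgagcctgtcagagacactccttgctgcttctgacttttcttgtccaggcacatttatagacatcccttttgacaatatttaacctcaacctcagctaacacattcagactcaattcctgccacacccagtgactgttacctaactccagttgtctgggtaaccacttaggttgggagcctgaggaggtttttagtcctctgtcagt
Ephb6 (chr6:41605261-41605560, plus strand), an ephrin receptor gene beyond the Tcrb V segments, holds 34 CG and had H3K4me3 over the whole stretch in both experiments.
Ephb6: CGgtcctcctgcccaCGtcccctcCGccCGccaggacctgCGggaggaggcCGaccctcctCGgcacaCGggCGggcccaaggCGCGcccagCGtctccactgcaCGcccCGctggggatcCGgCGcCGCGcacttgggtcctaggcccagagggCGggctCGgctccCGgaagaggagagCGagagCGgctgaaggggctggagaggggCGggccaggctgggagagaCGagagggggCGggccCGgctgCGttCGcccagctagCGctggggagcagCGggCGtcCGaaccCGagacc
Prss1 (chr6:41458680-41458979, plus strand), a trypsin gene within the Tcrb locus, holds 0 CG and had H3K27me3 over the whole stretch in both experiments and H3K9me3 in Exp1.
Prss1: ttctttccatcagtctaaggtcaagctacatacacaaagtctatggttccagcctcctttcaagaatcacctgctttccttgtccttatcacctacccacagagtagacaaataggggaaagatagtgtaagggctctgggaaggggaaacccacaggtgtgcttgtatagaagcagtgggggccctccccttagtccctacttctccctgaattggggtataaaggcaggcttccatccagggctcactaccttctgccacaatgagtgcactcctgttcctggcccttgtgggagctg

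Most V segments lay under islands of the 2 repressive marks and almost none under islands of the H3K4 marks. An island is a stretch of enriched windows that the authors' caller, SICER, joined across gaps, and a V segment is called marked when islands of both experiments overlap its window by at least 1 bp. H3K27me3 marked 301 of 374 V segments (80.5%), with 329 in Exp1 and 311 in Exp2. H3K9me3 marked 258 (69.0%), with 291 in Exp1 and 277 in Exp2. Both marks together covered 245 V segments (65.5%), H3K27me3 alone 56, H3K9me3 alone 13, and neither mark reached the call in both experiments at 60. H3K4me3 was called in both experiments at 2 V segments (0.535%) and H3K4me1 at 0, with 0 in Exp1 and 5 in Exp2. As the mean of the 2 experiments, 85.6% ± 3.4 of V segments had an H3K27me3 island, 75.9% ± 2.65 an H3K9me3 island, 0.668% ± 0.945 an H3K4me1 island and 0.668% ± 0.189 an H3K4me3 island (SD, n = 2 each).

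These shares stand beside those of the other genes of the table, called in the same way. Of 49221 other genes, 25.1% were marked by H3K27me3, 17.8% by H3K9me3 and 14.2% by both, while 39.1% were marked by H3K4me1 and 36.4% by H3K4me3. A long gene has more room to meet an island, and V segments are short, with a median of 469.5 bp (203 to 1739 bp), so other genes of at most 1 kb are the closer comparison. Of these 11950 genes, 28.9% were marked by H3K27me3, 24.6% by H3K9me3, 20.1% by both, 10.7% by H3K4me1 and 9.67% by H3K4me3. The V segment shares were higher than these for both repressive marks and lower for both H3K4 marks. No test was run, since neighbouring V segments share islands and are not replicates. Between marks, an exact two-sided permutation test of 2 experiments against 2 cannot give a p below 0.333.

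**Figure D1:**
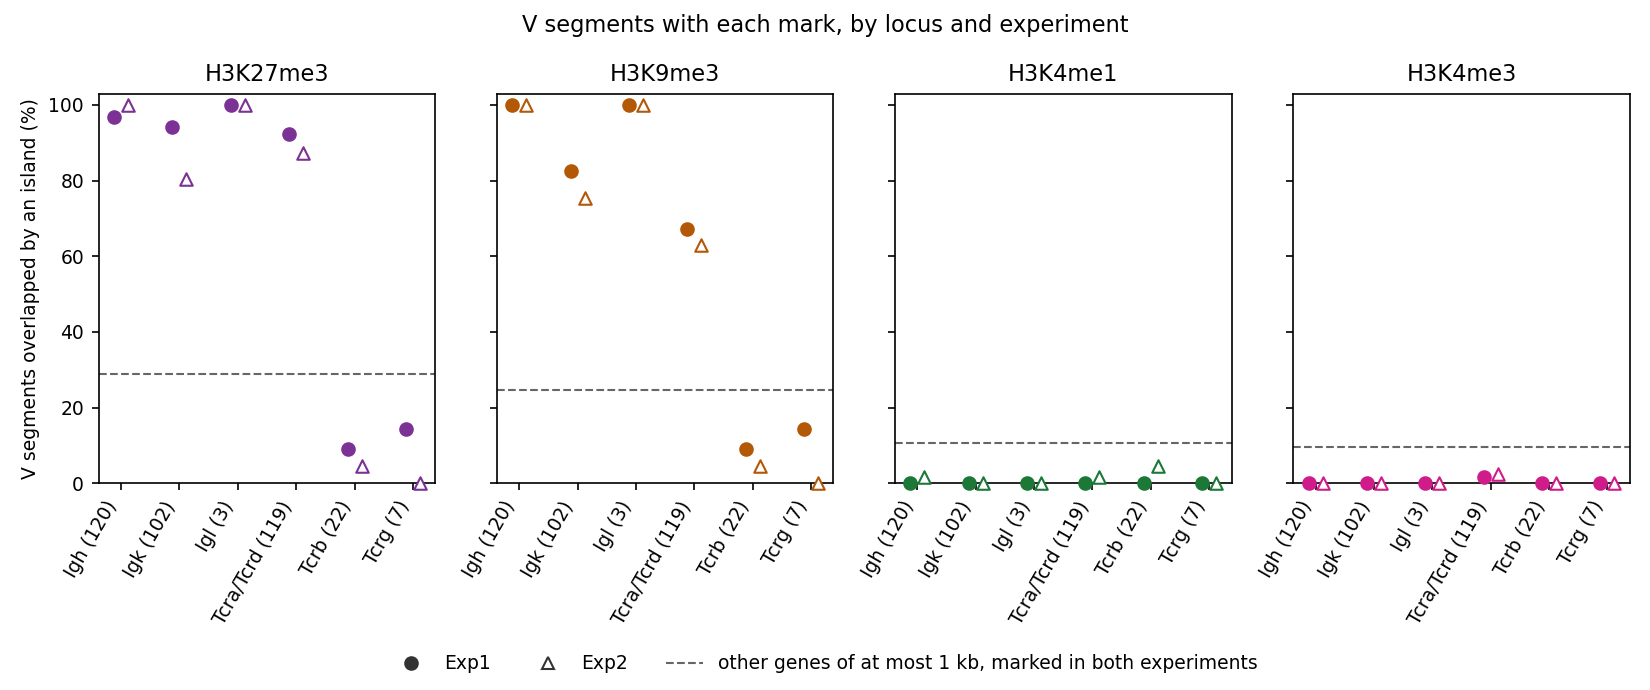
Percentage of V segments overlapped by an island (y axis, %) in each locus (x axis, with the number of V segments), for each of the 4 marks; circles are Exp1, triangles Exp2, and the dashed line is the percentage of other genes of at most 1 kb marked in both experiments. Igh, Igk, Igl and Tcra/Tcrd lie far above the line for H3K27me3 and H3K9me3, Tcrb and Tcrg lie below it, and every locus lies below it for both H3K4 marks.

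The percentages by locus and experiment divide the loci into those with most V segments under repressive islands and those with few. The 225 immunoglobulin V segments were marked more often than the 148 of the T cell receptor loci: 195 (86.7%) against 105 (70.9%) for H3K27me3, and 193 (85.8%) against 64 (43.2%) for H3K9me3. Both marks were called at 181 immunoglobulin V segments (80.4%) and at 63 T cell receptor V segments (42.6%). Within the T cell receptor loci almost all of these calls belonged to Tcra/Tcrd. Tcra/Tcrd alone had H3K27me3 at 87.4%, close to the pooled immunoglobulin share and above Igk at 74.5%. The lower H3K27me3 share of the T cell receptor loci thus came from Tcrb (4.55%) and Tcrg (0.0%). For H3K9me3, Tcra/Tcrd at 53.8% was below Igk at 68.6%.

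How the islands were made sets what they can show. Islands of the H3K27me3 lists sat on a grid of 5000 bp, and no gap between them was under 35000 bp. In the H3K9me3 lists the step was 3000 bp and the smallest gap 24000 bp, and in the H3K4 lists 200 and 800 bp. The median distance between neighbouring V segments was 18.2 kb in Igh, 24.7 kb in Igk, 10.7 kb in Tcra/Tcrd, 9.68 kb in Tcrb and 6.16 kb in Tcrg. An island of a repressive mark can therefore bridge several V segments, and its presence over one of them does not show that this segment was itself enriched. All V segments together met 12 and 15 separate H3K27me3 islands in Exp1 and Exp2, and 22 and 25 separate H3K9me3 islands. The Exp1 lists of these marks were also larger, with 7743 islands over 705 Mb against 4105 over 528 Mb in Exp2 for H3K27me3, and 9690 over 610 Mb against 5621 over 482 Mb for H3K9me3. Read depth is unknown, how reads that fit several places were treated is not given in the sources used here, and a V segment without an island is one where none was called.

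The Igh locus was covered from end to end. Its V segments run from Ighv5-2 to Ighv1-86 over 2.43 Mb of chromosome 12 (chr12:113578504-116009954). H3K9me3 lay over 120 of 120 V segments in both experiments, in 1 island of 2721 kb in Exp1 and 1 of 2802 kb in Exp2, each the eighth widest of its list. H3K27me3 lay over 116 V segments in Exp1, in islands of 850 and 1945 kb, and over all 120 in Exp2, in 1 island of 2905 kb, the fifth widest of 4105. The 4 V segments that lacked H3K27me3 in Exp1 were neighbours, from Ighv11-2 to Ighv9-1, and fell in the gap between the 2 islands. Of the span, 97.7% in Exp1 and 100% in Exp2 was under H3K27me3, and 100% in both was under H3K9me3. The largest family, Ighv1, had both marks at 60 of 60 members. Gm7003 (chr12:113803004-113803206), the V segment without a prefix, was wholly under both marks in all 4 libraries.

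The cover of Igh continued into the segments that V segments join. All 10 D segments and all 4 J segments of Igh were marked by both repressive marks. The 8 constant region genes, which give the antibody its class, had H3K27me3 in both experiments, while H3K9me3 was called in both at 3 of them, Ighg3, Ighd and Ighm. The H3K9me3 island started at 113343001 in Exp1 and at 113259001 in Exp2, which left Igha, Ighe, Ighg2c, Ighg2b and Ighg1 covered or touched in Exp2 only. Adam6a, between these segments and the V array, was wholly under both marks in all 4 libraries.

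The distal border of Igh lay at Zfp386. The H3K27me3 islands of both experiments ended at position 116045000, 35 kb past Ighv1-86 and 2.47 kb before the Zfp386 promoter stretch printed above. The H3K9me3 islands ended later, at 116064000 in Exp1 and 116061000 in Exp2, and covered 98.7% and 81.6% of the Zfp386 window. H3K4me3 was called over that promoter in both experiments and covered 24.5% and 16.0% of the gene's window. Zfp386 was thus marked by H3K9me3, H3K4me1 and H3K4me3 and by no H3K27me3.

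**Figure D2:**
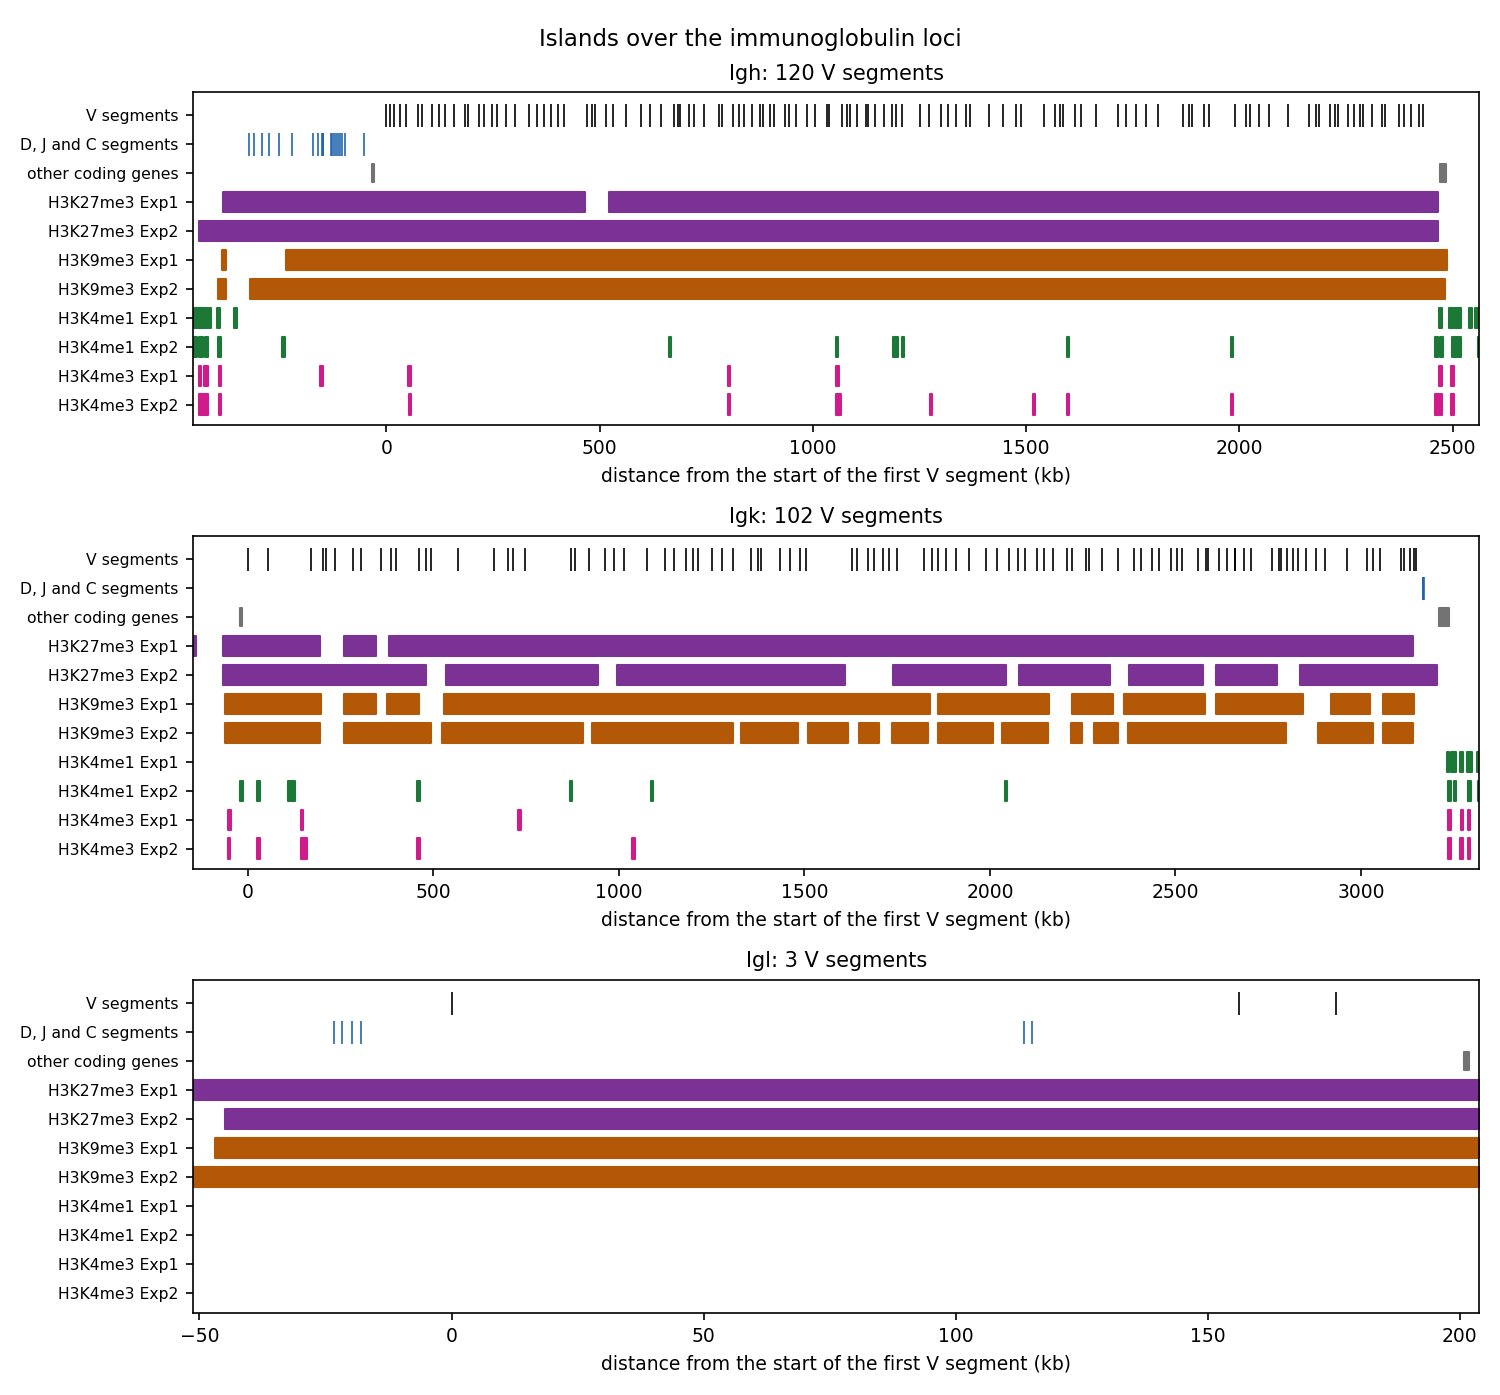
Islands of each library over the immunoglobulin loci against the distance in kb from the start of the first V segment; ticks are the starts of V segments and of D, J and C segments, grey boxes are other protein-coding genes inside or next to the V segments, and coloured boxes are islands, with narrow ones drawn at a minimum width. The repressive islands of Igh run unbroken over most of the array and stop beside or over the gene on the right, those of Igk are broken into several pieces in Exp2, and those of Igl run past both edges of the panel or close to its left edge.

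The Igk locus was covered almost as widely but in pieces. Its V segments run from Igkv2-137 to Igkv3-1 over 3.15 Mb (chr6:67555636-70704177). H3K27me3 lay over 96 of 102 V segments in Exp1, in 3 islands of which the widest, 2760 kb, was the fifth widest of 7743, and over 82 in Exp2, in 8 islands of at most 615 kb. H3K9me3 lay over 84 V segments in Exp1 and 77 in Exp2, in 10 and 15 islands over the span, with widths of up to 1308 and 426 kb. Called in both experiments, H3K27me3 marked 76 V segments, H3K9me3 70, and both marks 62. Each of the 102 had H3K27me3 in at least 1 experiment, so the segments outside the call lie in gaps of only 1 of the lists. For H3K9me3, 11 V segments had no island in either experiment. The V segments in gaps were groups of neighbours spread over the locus, and the Igkv4 family, with 28 members in the middle of it, had both marks at 16.

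The proximal end of Igk, next to its J segments and constant region, was the border of the domain. Igkv3-2 had H3K27me3 in Exp2 and H3K9me3 in Exp1, and Igkv3-1, the last V segment, had only H3K27me3 in Exp2. Igkv3-1 ends at position 70704177. The last islands over the V segments ended short of it, at 70695000 for H3K27me3 in Exp1, and at 70698000 and 70695000 for H3K9me3 in Exp1 and Exp2. In H3K27me3 Exp2 the last island ran 55.8 kb past it. Igkc, the constant region gene, was accordingly under an island in that library and in no other. The next gene, Rpia, which encodes an enzyme of the pentose phosphate pathway, had H3K4me3 and H3K4me1 in both experiments and neither repressive mark.

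The Igl locus is small in mouse, with 3 V segments from Iglv1 to Iglv2 over 0.176 Mb (chr16:19085017-19260844). All 3 were wholly covered by H3K27me3 and H3K9me3 in all 4 libraries. The islands were far wider than the locus, at 875 and 760 kb for H3K27me3 and 711 and 792 kb for H3K9me3, and ran 488 to 569 kb past the last V segment. The constant region genes Iglc1, Iglc3 and Iglc2 had the same full cover, as did the neighbour Olfr164, an olfactory receptor gene. On the other side, Hira, a histone chaperone gene, had H3K4me3 and H3K4me1 in both experiments and H3K9me3 over 15.0% of its window in each. It also had H3K27me3 over 17.1% of its window in Exp1 and none in Exp2.

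The Tcra/Tcrd locus had H3K27me3 over most of its V segments and H3K9me3 in patches. Its V segments run from Trav1 to Trdv5 over 1.72 Mb (chr14:52427967-54149201). H3K27me3 lay over 110 of 119 V segments in Exp1 and 104 in Exp2, with 104 in both (87.4%). Its widest islands measured 1410 kb in Exp1, and 715 and 650 kb in Exp2. H3K9me3 lay over 80 V segments in Exp1 and 75 in Exp2, with 64 in both (53.8%), in 9 and 8 islands over the span, none wider than 504 kb. Of the 119 V segments, 63 had both marks, 41 H3K27me3 alone, 1 H3K9me3 alone and 14 neither. The share of the span under islands was 82.3% and 77.6% for H3K27me3 and 64.0% and 60.5% for H3K9me3 in Exp1 and Exp2.

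The cover broke off among the proximal Trav and the Trdv segments. A run of 7 V segments from Trav3-4 to Trdv1 (53777071 to 53882217 on chromosome 14) was under no repressive island in any of the 4 libraries. The Trdv segments, used by gamma-delta T cells, differed from one another. Trdv2-1 was covered in all 4 libraries, Trdv2-2 by H3K9me3 in Exp2 alone, Trdv4 in none, and Trdv5 by H3K27me3 in both experiments. Trdc, the delta constant gene beside Trdv5, also had H3K27me3 in both experiments, while Trac, the alpha constant gene, had no repressive island. Trav1, at the distal end, had H3K27me3 in both experiments and H3K9me3 in Exp1. Between it and the next Trav lie 3 olfactory receptor genes, Olfr1509, Olfr1508 and Olfr1507, and Gm36448, each wholly under both marks in all 4 libraries.

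In C57BL/6 mice a stretch of Trav segments is repeated, and the letters d and n in the symbols name the copies. H3K27me3 marked 33 of 35 d segments, 28 of 31 n segments and 41 of 48 Trav segments with no letter. H3K9me3 marked 22 of 35, 18 of 31 and 23 of 48. The order for H3K9me3 was not the same in each experiment: in Exp1 it lay over 24 of 35 d, 24 of 31 n and 31 of 48 segments with no letter, and in Exp2 over 28, 22 and 23. Reads of 50 bp from near-identical copies may have been placed at either, so the copies are not separate measurements. Among families with at least 5 members, singled out after their values were seen, Trav4 had H3K9me3 at 7 of 7 members and Trav12 at 8 of 9, while Trav13 had it at 4 of 13 and Trav8 at 1 of 5. H3K27me3 marked 7 of 7, 9 of 9, 11 of 13 and 5 of 5 of the same families.

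**Figure D3:**
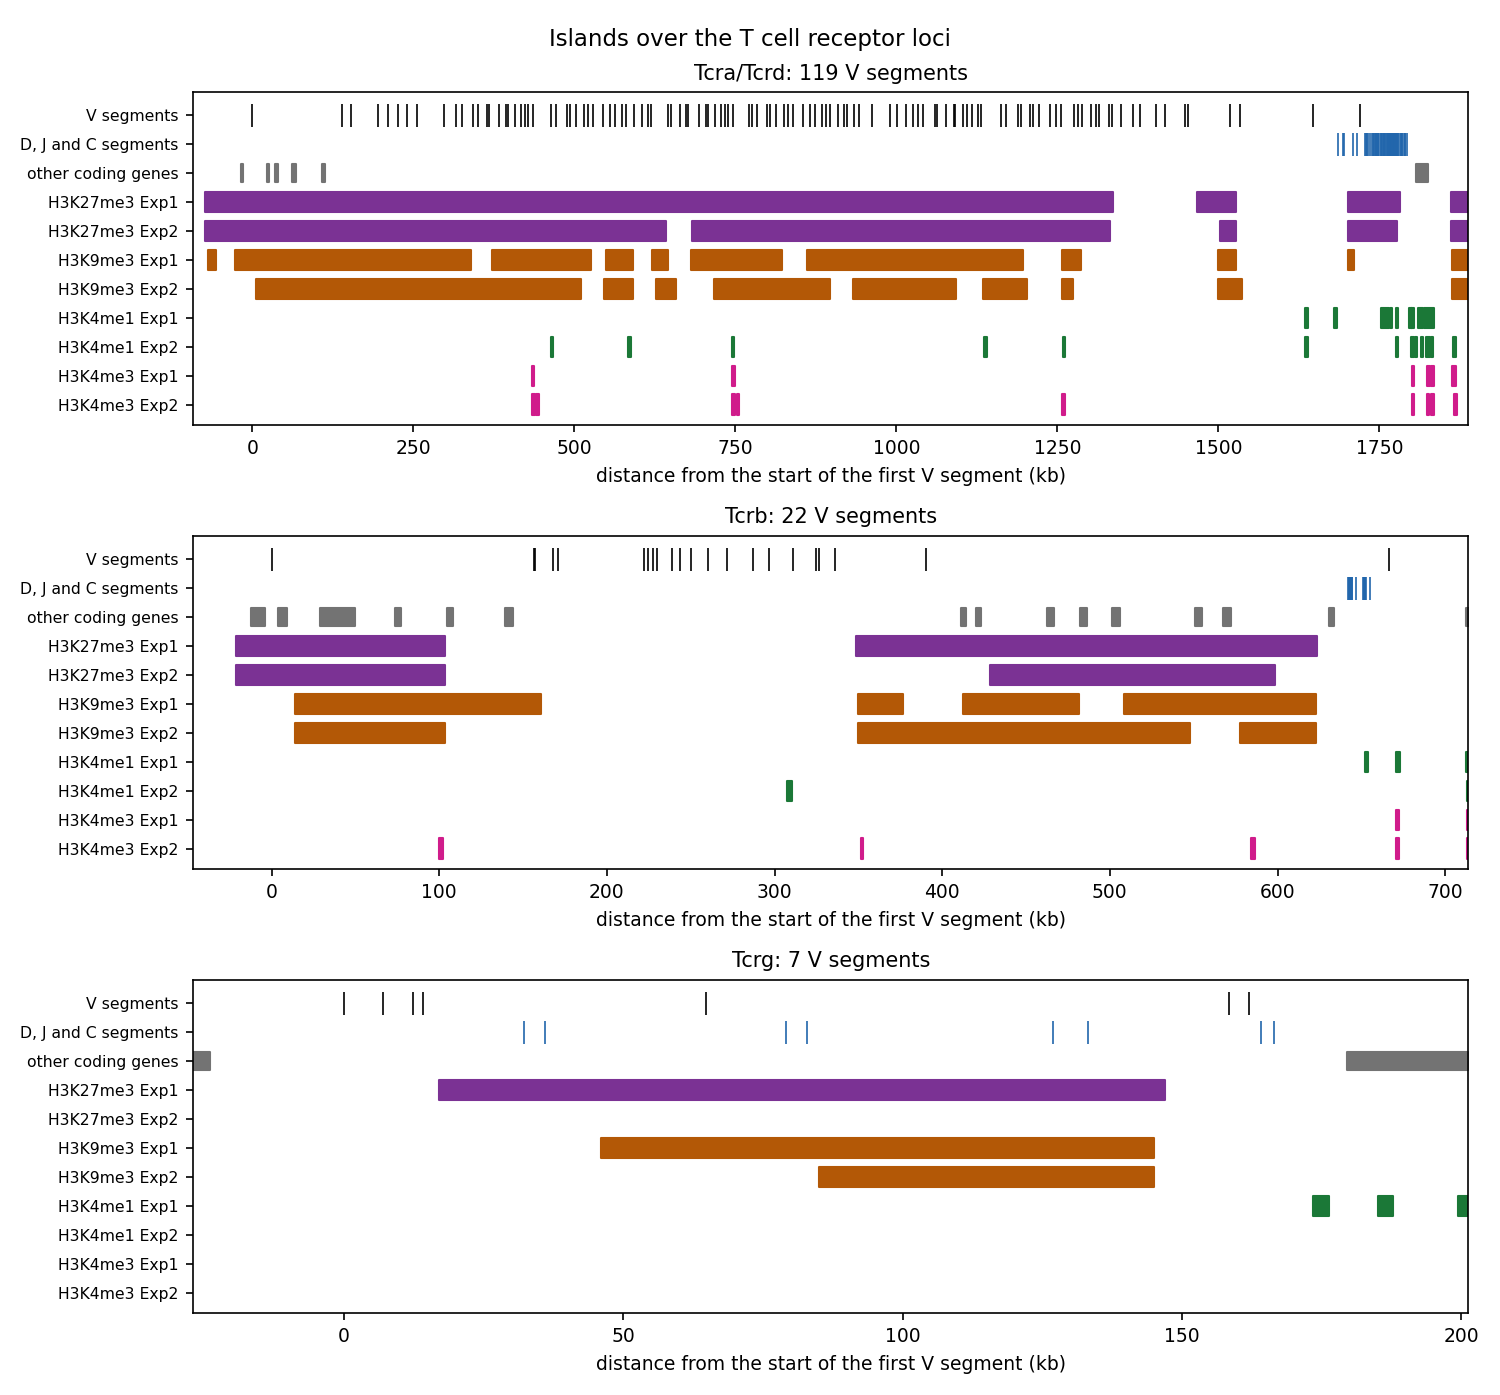
Islands of each library over the T cell receptor loci, drawn as in the map of the immunoglobulin loci, with narrow islands at a minimum width. In Tcra/Tcrd the repressive islands stop before the last Trav segments and return over a few proximal segments, in Tcrb they cover the 2 clusters of other coding genes and leave the V cluster between them free, and in Tcrg they lie between the outer groups of V segments.

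The Tcrb locus showed the reverse of Igh: the V segments were largely free of repressive islands although much of the span was not. Its V segments run from Trbv1 to Trbv31 over 0.667 Mb (chr6:40891296-41558371). H3K27me3 marked 1 of 22 V segments, Trbv1, and H3K9me3 marked 0, with 2 in Exp1 and 1 in Exp2. The 17 neighbouring V segments from Trbv4 to Trbv26, and Trbv31, lay under no repressive island in any library. At the edges of that stretch, Trbv2 and Trbv3 had H3K9me3 in Exp1, and Trbv30 had H3K27me3 in Exp1 and H3K9me3 in Exp2. These shares, 4.55% and 0.0%, were below those of other genes of at most 1 kb.

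The islands in Tcrb lay over the other genes that share the locus, many of them trypsin genes. H3K27me3 covered 56.8% of the span in Exp1 and 41.0% in Exp2, and H3K9me3 53.5% and 49.9%. Of the 13 other protein-coding genes inside the span, 9 were marked by H3K27me3, 7 by H3K9me3 and 5 by both. Try10 was wholly covered in all 4 libraries, and Prss1, whose promoter is printed above, was wholly covered by H3K27me3 in both experiments and by H3K9me3 in Exp1. Prss2, the trypsin gene nearest to the D and J segments, had no island. The constant region genes Trbc1 and Trbc2 had no island of any mark. Past Trbv31, Ephb6 had H3K4me3 and H3K4me1 in both experiments and no repressive island, and on the other side Moxd2 was wholly under H3K27me3 in both experiments.

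The Tcrg locus, with 7 V segments from Trgv7 to Trgv1 over 0.162 Mb (chr13:19178042-19340454), had no V segment marked in both experiments. Trgv3 lay under H3K27me3 and H3K9me3 in Exp1, and the other 6 had no island of any mark in any library. The islands lay between the V groups: H3K27me3 covered 80.0% of the span in Exp1, in an island of 130 kb, and 0.0% in Exp2, and H3K9me3 covered 61.0% and 36.9%, in islands of 99 and 60 kb. Of the 4 constant region genes, Trgc3 and Trgc2 had H3K9me3 in both experiments, and Trgc4 had no repressive island. H3K27me3 lay over 3 of the 4, Trgc1 among them, in Exp1 and over 0 in Exp2. The neighbours Amph and Stard3nl had H3K4me3 and H3K4me1 in both experiments, and Amph had H3K9me3 as well. Amph also had H3K27me3 in Exp1 only.

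**Figure D4:**
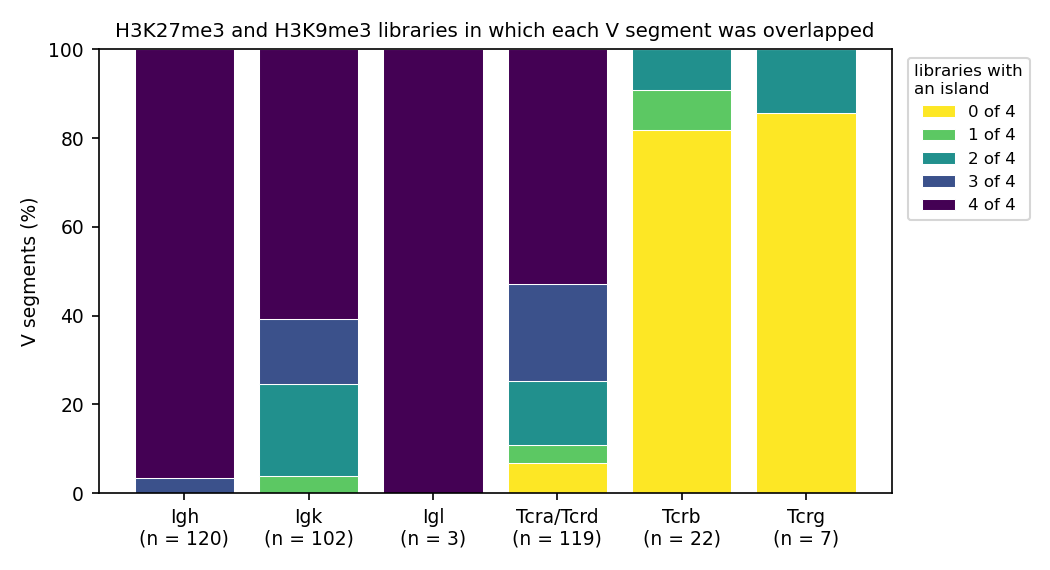
Percentage of V segments in each locus (y axis, %; n below each bar) by the number of the 4 repressive libraries, H3K27me3 and H3K9me3 in Exp1 and Exp2, in which an island overlapped the V segment. Dark bars, 4 of 4 libraries, fill Igl and nearly all of Igh, while yellow, 0 of 4, holds most of Tcrb and Tcrg.

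Counted over the 4 repressive libraries, 245 V segments were covered in all 4, 45 in 3, 41 in 2, 11 in 1 and 32 in 0. The 245 were 116 of Igh, 62 of Igk, 3 of Igl and 63 of Tcra/Tcrd, with Gm7003 the remaining 1. The 32 with no repressive island were 18 of Tcrb, 8 of Tcra/Tcrd and 6 of Tcrg, and 31 of them had no island of any mark, led in coordinate order by Trav3-4 in Tcra/Tcrd, Trbv4 in Tcrb and Trgv7 in Tcrg. Trbv21, the exception, had an H3K4me1 island in Exp2.

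The V segment pseudogenes, which the member rule leaves out, were marked more often in the immunoglobulin loci. H3K27me3 marked 115 of 123 immunoglobulin V pseudogenes and H3K9me3 106 of 123, against 10 of 30 and 13 of 30 in the T cell receptor loci. Of other genes of at most 1 kb, 28.9% and 24.6% were marked, so 10 of 30 was near the first share. In Tcra/Tcrd the 2 marks were called at 10 and 11 of 17 pseudogenes, against 104 and 64 of 119 V segments. In Tcrb they were called at 0 and 2 of 13 pseudogenes. Among J segments, each mark was called in both experiments at 7 of 12 in the immunoglobulin loci, and the other 5, all of Igk, lay under H3K27me3 in Exp2 and not in Exp1, while in the T cell receptor loci H3K27me3 marked 43 of 70 and H3K9me3 1 of 70. Both marks lay at 10 of 10 D segments of Igh, against 0 of 4 in the T cell receptor loci.

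The 2 V segments with H3K4me3 in both experiments were the d and n copies of Trav15-1. Trav15d-1-dv6d-1 (chr14:52863365-52863933) had an H3K4me3 island of 1.0 kb in Exp1, 564 bp from the gene, with the authors' p-value of 4.69e-22, and one of 0.6 kb in Exp2, 364 bp away, with 5.68e-25. Trav15n-1 (chr14:53174325-53174896) had islands of 1.0 kb, 524 bp away, with 3.25e-14, and of 1.2 kb, 324 bp away, with 4.47e-10. Neither island reached the gene itself. Both genes were wholly under H3K27me3 and H3K9me3 in all 4 libraries. The third copy, Trav15-1-dv6-1, had no H3K4me3 island, and was wholly under H3K27me3 in both experiments and under H3K9me3 in Exp1. Trav4-4-dv10 had an H3K4me3 island of 4.2 kb in Exp2 only, 823 bp away, with a p-value of 0.00059.

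H3K4me1 islands met V segments in Exp2 alone. They lay at Ighv1-24, Ighv1-26, Trav9d-2, Trav15n-1 and Trbv21, with the authors' p-values between 0.000402 and 0.0337. The Exp2 H3K4me1 list held 1081 islands with a p-value above 0.05, against 96 in Exp1.

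Over the whole loci, D, J and C segments included, 10 H3K4me3 islands were called in Exp1 and 24 in Exp2, with 8 in each list that overlapped an island of the other. For H3K4me1 the numbers were 11 and 24, with 3 shared. In Igh the 3 shared H3K4me3 islands lay between V segments, the nearest to a V segment 4.4 kb from Ighv5-6 in Exp1 and 5.0 kb in Exp2. In Tcrb the shared H3K4me3 island began 3.83 kb past Trbv31 in Exp1 and 3.43 kb past it in Exp2, with p-values of 3.23e-39 and 2.55e-27. The 3 shared H3K4me1 islands were all in Tcra/Tcrd, where 1 lay 9.8 kb from Trdv4, 1 over the J segments around Traj15, and 1 past Trac. That past Trac, 3.6 kb beyond the gene, also held an H3K4me3 island of 1.4 kb at the same position in both experiments, with p-values of 5.66e-14 and 2.19e-20. The Tcra enhancer is known to lie downstream of Trac in mouse, and no annotation of it was used here. H3K4me1 was called in both experiments at 5 of 70 T cell receptor J segments, Traj16, Traj15, Traj13, Traj12 and Traj11. Exp1 alone had it at many more, with 23 of 53 J segments of Tcra/Tcrd against 5 in Exp2, and 6 of 13 of Tcrb against 0.

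The promoter sequences of the genes in and beside the arrays divided with the H3K4me3 call. Of 23 promoter stretches in the table, the 6 with H3K4me3 in both experiments (Ephb6, Hira, Rpia, Dad1, Amph and Zfp386) held 17 to 34 CG, and the 17 without it held 0 to 8. Those of Zfp386 and Amph were also wholly under H3K9me3 in both experiments. Over all 32851 promoters the median was 7 CG, and 43.5% held at least 10. CG was counted by its letters, which read the same on both strands. The stretches of Zfp386 and Ephb6 printed above are examples from the richer set, and those of Adam6a and Prss1 from the poorer. CG-rich promoters are known to carry H3K4me3 in many cell types, and what the count has to do with the calls here was not tested.

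The olfactory receptor genes, another large family of short genes in long arrays that most cells keep silent, gave a comparison of the same kind. H3K27me3 marked 80.5% of V segments, against 675 of 1109 olfactory receptor genes (60.9%). H3K9me3 marked 69.0% of V segments, against 614 (55.4%), and both marks together 65.5%, against 501 (45.2%). The higher H3K9me3 share did not hold in every locus. It was above 55.4% in Igh (100%), Igl (100%) and Igk (68.6%). In Tcra/Tcrd (53.8%), Tcrb (0.0%) and Tcrg (0.0%) it was below. The 120 V segments of Igh lay under 1 H3K9me3 island in each experiment and weigh heavily in the pooled share. For H3K4me3 the counts were 2 V segments and 1 olfactory receptor gene, and for H3K4me1 0 and 4. The difference in repressive cover was smaller than that between V segments of Igh and Tcrb.

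Genes that act on V segments were read in the same calls, beside the shares of all other genes given above. Of 14 genes of V(D)J recombination, 12 had H3K4me3 in both experiments (36.4% over all other genes), 11 H3K4me1 (39.1%), 2 H3K9me3 (17.8%) and 0 H3K27me3 (25.1%). The H3K9me3 count was near the share over all other genes. Most of these encode DNA end-joining proteins that all cells use, such as Xrcc6, Xrcc5 and Prkdc. Rag2 had H3K4me3 and H3K4me1 in both experiments, while Rag1, its partner in the recombinase, had only H3K4me1 in Exp1. Dntt, the lymphocyte enzyme that adds bases at the joints, had no island. Of the octamer factors that bind V promoters in B cells, Pou2f1 and Pou2f2 had H3K4me3 and H3K4me1 in both experiments and the coactivator gene Pou2af1 had neither.

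The marker lists describe the cells in the same calls. H3K4me3 was called in both experiments at 10 of 10 Müller glia genes, among them Slc1a3, Glul and Rlbp1, and at 6 of 6 rod genes, among them Nrl and Crx. H3K27me3 marked 3 of the 10 Müller glia genes, Rlbp1, Sox9 and Sox2, and 0 of the 6 rod genes. H3K4me3 was called at 5 of 12 B cell genes, 5 of 12 T cell genes and 1 of 8 leukocyte genes, and H3K27me3 at 4, 4 and 1. The B cell and T cell shares were near the 36.4% and 25.1% of all other genes, so they do not set these lists apart. The genes with H3K4me3 were Cd79a, Pax5, Ebf1, Vpreb1 and Vpreb3 of the B cell list, Cd247, Lck, Cd4, Tcf7 and Bcl11b of the T cell list, and Coro1a of the leukocyte list. Some of these calls rest on short overlaps with the window. In Exp1 and Exp2 the overlap was 255 and 55 bp at Vpreb1 and 57 and 457 bp at Vpreb3. At Cd79a it was 1858 and 258 bp. Ptprc, a defining gene of leukocytes, was not marked by H3K4me3, and Cd3e, Cd3d and Cd3g, which encode the T cell receptor's signalling partners, were under H3K27me3 in both experiments. H3K9me3 marked 0 of these 32 lymphocyte and leukocyte genes, against 258 of 374 V segments and 17.8% of all other genes, and Ms4a1 had it over 88.4% of its window in Exp2 alone. What rods or other cells contributed to the islands at V segments was not tested.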

How the data were processed

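ChIP-seq libraries were made from chromatin of 25000 formaldehyde-fixed cells each and sequenced as single reads of 50 bp, per the labels' protocols. The authors processed reads with SICER, bedtools 2.17, SAMtools 1.3.1, BWA 0.7.5a and FastQC, and with the mm10 build, according to the submitters' processing notes. The authors deposited 1 island list per ChIP library, each island with a position and a p-value, taken here as theirs; whether it is corrected, and which SICER settings and control were used, is not given in the sources used here. The 2 input libraries were not analysed here. No list holds read counts, so depth is unknown and no interval was computed.

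Islands were laid on gene windows with Python 3.11.15, pandas 2.3.3 and NumPy 2.4.6, after a check of the overlap code on 200 simulated windows; figures used Matplotlib 3.10.9. A V segment was marked when islands of both experiments overlapped its window by at least 1 bp. Gene names and spans came from the RefSeq table of GRCm38.p6; 20 of 394 V segments lay on separate scaffolds and were left out. Promoters came from the RefSeq promoter table, which matched 0 of 394 V segments, so the planned search of V promoters for the octamer was not made. Text names the outermost V segments of each locus, V segments with H3K4 islands or with none, constant region genes, and coding genes inside or beside each array, by rule; other V segments were named after their values were seen. Members and gene lists were chosen with earlier results of these data known. Alternatives varied the flank, the overlap, the p-value limit, the experiments required and the pseudogenes.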

Additional observations from a re-analysis of the deposited data

How the results depend on the processing

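The counts over all V segments for H3K27me3 (301), H3K9me3 (258) and both marks (245) moved by less than 1.5 times under every alternative tried: islands of 1 experiment, islands of either, no flank, a flank of 5 kb, 50% of the window covered, p-values at or below 0.05 or the median of the list, and V pseudogenes added. With 1 experiment left out, they ranged over 311 to 329, 277 to 291 and 260 to 284, H3K4me3 over 2 to 3 and H3K4me1 over 0 to 5. Several of the alternatives could not lower the repressive counts. Islands of 1 experiment or of either, a wider flank and added pseudogenes can only raise them. All V segment windows met by H3K27me3 islands, 329 in Exp1 and 311 in Exp2, were wholly covered. Dropping the flank or asking for 50% cover therefore had to return 301. No repressive island over the loci had an authors' p-value above 0.000206, so the limit of 0.05 removed none. Taking the experiment number as a replicate block, with both marks on a common base within each experiment, gave 245; the call already required islands of both marks in both experiments, so this could hardly differ and says nothing about stability. H3K4me1 marked 5 V segments when an island in either experiment was enough, all from Exp2. H3K4me3 marked 0 with no flank, 4 with a 5 kb flank, 0 with 50% of the window covered and 0 with islands at or below the median p-value of their list. By locus, 191 of 216 counts moved by less than 1.5 times and 25 by more. Among the 191, H3K9me3 in Tcra/Tcrd fell from 64 to 43 of 119 V segments (53.8% to 36.1%). That was with islands at or below the median p-value of their list, where Igk stayed at 70 of 102. Many of the 191 were counts of 0 that stayed 0, among them all 48 for H3K4me1, so they do not show stability. Some of the 25 moved only because pseudogenes were added, such as H3K9me3 in Igh, from 120 of 120 to 183 of 183. The calls rest on island lists without read counts, so weak signal in the gaps was not measured.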
